A study of Zea mays with 2 samples.

Results

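Of 2555 sites on maize chromosomes 1 to 10 bound by Opaque2 (O2) in the later of a pair of deposited peak lists, 386 (15.1%, exact binomial 95% interval 13.7 to 16.6%) had another O2 site within 50 kb, measured from summit to summit. These linked sites formed 181 runs, in which each site lies within 50 kb of the next. The other 2169 chromosomal sites, called the remaining sites here, had no such neighbour. The members were chosen by the summit positions alone. The pileup, length and fold of a site come from the same libraries and the same peak calling, so they are described and not tested.

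The data are chromatin immunoprecipitation with sequencing (ChIP-seq) of wild-type maize endosperm, the starch and protein store of the kernel, at 15 days after pollination. One library was precipitated with a rabbit antibody raised against full-length O2 protein, and rabbit IgG without that specificity was used for the control library. With 1 library per antibody no value has a replicate error. How deeply each library was sequenced is unknown. Intervals below cover counting error only, since sites of 1 library, and above all sites of 1 run, are not independent replicates.

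O2 is a basic leucine zipper transcription factor made in the endosperm, where it activates genes of storage proteins, and kernels that lack it are known for opaque, zein-poor endosperm. The alpha-zeins, the most abundant of these storage proteins, are encoded by families of near-identical genes that arose by tandem duplication, and the main arrays are textbook features of chromosomes 1, 4 and 7. In RefSeq's gene table, which belongs to the assembly Zm-B73-REFERENCE-NAM-5.0, 41 genes carry alpha-zein names, and 34 of them have another alpha-zein gene as their immediate neighbour. The longest stretch there, with at most 2 other genes between successive alpha-zein genes, holds 14 genes of the z1C family. The longest stretches of the z1A and z1B families held 9 genes each, and that of z1D held 5. The peak list uses other coordinates, so no site below was assigned to a gene, and whether a run lies within a zein array was not tested.

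Nearly all runs were short. There were 160 pairs, 18 runs of 3 sites and 3 runs of 4, and no run was longer. From its first to its last summit the median run reached 19661 bp (quartiles 9769 and 37244 bp), and the longest, with 4 sites, reached 121354 bp. No run held as many sites as the longest z1A, z1B, z1C or z1D stretch holds genes. These counts are not alike, so nothing is concluded from them. The stretches are defined by the genes in between, with no distance limit, while a run needs successive summits within 50 kb. How reads that map equally well to several copies of a gene were treated is not stated in the labels or files; peak names hold the word uniq in the earlier list and not in the later.

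Within the 50 kb limit, neighbours up to 5 kb apart were the most frequent per kb of distance. Their intervals overlapped those of the distances from 5 to 25 kb. The interval for over 1 and up to 5 kb lay above each of those beyond 25 kb. The wider interval for up to 1 kb, without pairs of summits in 1 called interval, overlapped all of them. There were 9 neighbouring summits up to 1 kb apart, which is 9 per kb of distance (exact Poisson 95% interval 4.12 to 17.1). Of these, 3 are pairs of summits within 1 called interval, and without them the value is 6 per kb (2.2 to 13.1). A further 27 were over 1 and up to 5 kb apart (6.75 per kb, 4.45 to 9.82), and 24 were over 5 and up to 10 kb apart (4.8 per kb, 3.08 to 7.14). Above 10 kb there were 60 neighbours up to 25 kb apart (4 per kb, 3.05 to 5.15) and 85 more from there up to 50 kb (3.4 per kb, 2.72 to 4.20). Beyond the limit, 71 neighbours lay over 50 and up to 75 kb apart, at 2.84 per kb (2.22 to 3.58), and 88 lay up to 100 kb apart, at 3.52 per kb (2.82 to 4.34). The 145 links over 10 kb were therefore about as frequent per kb of distance as unlinked neighbours.

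**Figure D1:**
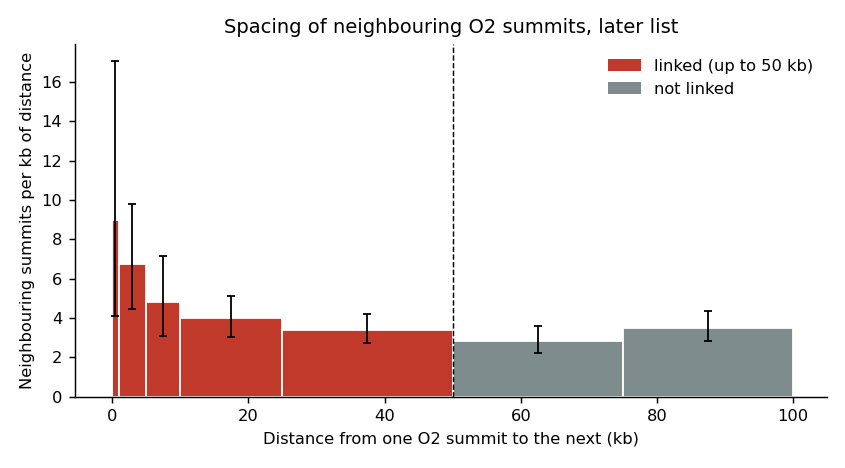
Number of neighbouring O2 summits per kb of distance (vertical axis) by their distance in kb (horizontal axis), for linked (red) and unlinked neighbours (grey); error bars are exact Poisson 95% intervals and the dashed line is the 50 kb limit. The value was 9 per kb up to 1 kb, including 3 pairs of summits within 1 called interval, and between 2.84 and 4 per kb in each class from 10 to 100 kb.

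The median pileup, the number of overlapping fragments at a summit, was close on either side of the limit. It was 29 for neighbours over 25 and up to 50 kb apart, and 30.5 for those over 50 and up to 75 kb apart. The higher pileup was a median of 1.71 times the lower in the first class and 1.95 times in the second. The pairs nearest the limit are too few to show whether it marks a break. The links just inside the limit had spacings of 49339, 49849 and 49898 bp. Their pileups were 61 and 90 on chromosome 8, 18 and 29 on chromosome 2, and 46 and 59 on chromosome 1. The neighbours just outside were 50821, 51160 and 51581 bp apart. Theirs were 108 and 19 on chromosome 6, 12 and 25 on chromosome 3, and 16 and 14 on chromosome 6 again.

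O2 signal at linked sites was close to that at the remaining sites, and slightly lower by median. Linked sites had a median pileup of 27 (quartiles 19 and 48, range 9 to 234) and remaining sites a median of 30 (quartiles 20 and 55, range 8 to 327). The binomial 95% intervals of these medians, 25 to 30 and 29 to 31, overlapped. By chromosome, the median pileup of linked sites was lower than that of remaining sites on 6 and higher on 4. The background that the peak caller derived from the IgG library had a median of 2.85 pileup units at linked sites and 2.94 at remaining sites. Its lowest value, 1.35, was the same in both groups and recurred at many sites. Folds at such sites rest on that shared lowest value, and whether it is a floor of the caller was not tested. The median fold enrichment, (pileup + 1) over (background + 1), was 7.01 at linked sites and 7.73 at remaining sites.

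The share of strong sites among linked sites was near that among all sites. Of all 2555 chromosomal sites, 12.4% had a fold of at least 20. Among linked sites the number was 42 (10.9%, exact binomial interval 7.96 to 14.4%), and among remaining sites it was 275 (12.7%, 11.3 to 14.2%). At a fold of at least 10, where the share of all sites was 36.0%, there were 124 linked sites (32.1%, 27.5 to 37.0%) and 797 remaining sites (36.7%, 34.7 to 38.8%). At the weak end, where the share of all sites was 17.8%, 84 linked sites (21.8%, 17.7 to 26.2%) and 370 remaining sites (17.1%, 15.5 to 18.7%) had a fold under 5. Linked sites made up 15.1% of sites and held 13.6% of the summed pileup above background.

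**Figure D2:**
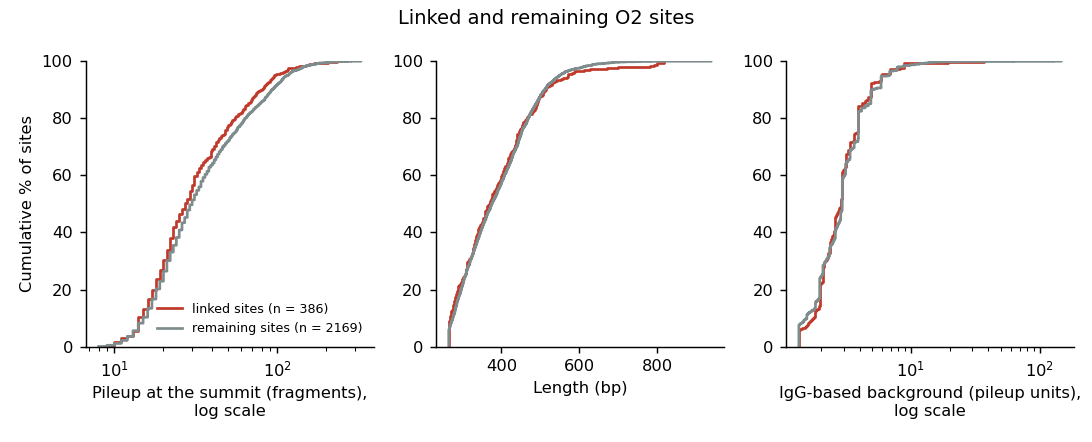
Cumulative percentage of sites (vertical axis) by pileup in fragments on a log scale, length in bp and IgG-based background in pileup units on a log scale, for 386 linked (red) and 2169 remaining sites (grey). The curves lie close together, with medians of 27 and 30 for pileup, 369.5 and 376 bp for length, and 2.85 and 2.94 for background.

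Lengths were close as well. Linked sites had a median length of 369.5 bp (quartiles 306 and 444 bp) and remaining sites a median of 376 bp (quartiles 308 and 452 bp). At 600 bp or more there were 14 linked sites (3.63%, exact binomial interval 2.0 to 6.01%) and 54 remaining sites (2.49%, 1.88 to 3.24%). Of the 14 linked ones, 6 came from 3 regions in which the caller placed 2 summits in 1 enriched interval, so that the same length is listed for both. Without these 6 the share among linked sites was 2.11% (0.913 to 4.11%).

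The 3 split regions were among the closest links of all. On chromosome 5 at 172858457 to 172859272, summits 336 bp apart had pileups of 14 and 29. Also on chromosome 5, at 182192101 to 182192900, the spacing was 458 bp and the pileups were 30 and 37. The third was on chromosome 9 at 138489066 to 138489847, with pileups of 14 and 57 at 430 bp. The closest links between separate intervals were on chromosome 7 at 10517585 to 10518535, with pileups of 22 and 30 at summits 559 bp apart, and on chromosome 6 at 165542432 to 165543538, with 16 and 33 at 599 bp. None of the links between separate intervals joined intervals that touched or overlapped.

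Neighbours in a run often differed in strength. Across the 205 links, the higher pileup was a median of 1.71 times the lower (quartiles 1.27 and 2.52, binomial interval of the median 1.53 to 1.92). Among the 2340 neighbouring summits over 50 kb apart the median ratio was 1.86 (quartiles 1.35 and 3.04, interval 1.82 to 1.92). The pileups differed at least 2-fold in 79 links (38.5%) and in 1077 of the more distant neighbours (46.0%). The pileup of a site said little about that of its linked neighbour, with Pearson r = 0.115 on the log2 scale and Spearman rho = 0.101 over 205 links, against 0.0171 and 0.00626 over the more distant neighbours. These are correlations across sites of the same libraries, which share sites within longer runs, and they are given as descriptions.

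**Figure D3:**
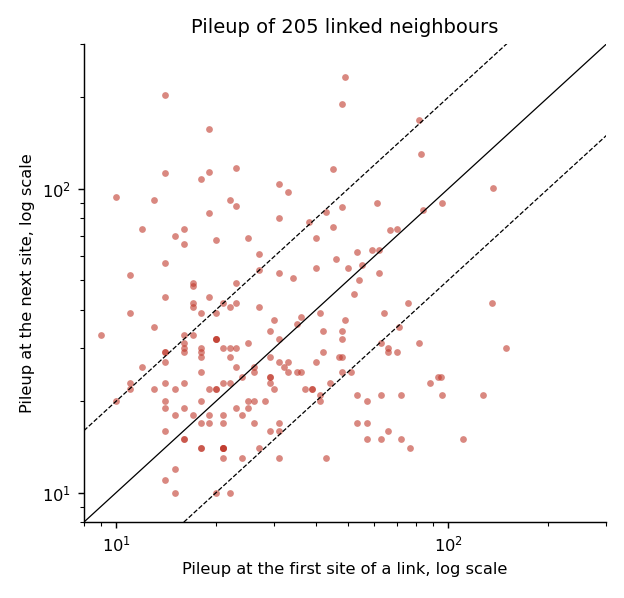
O2 pileup at the second site of each of 205 links (vertical axis, log scale) against pileup at the first (horizontal axis, log scale), in coordinate order; the solid line is equality and the dashed lines a 2-fold difference. Points scatter widely, with 79 links at or beyond the dashed lines.

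The most unequal links placed a weak site beside a strong one. On chromosome 9 at 150250851 to 150284024, a pileup of 14 over an IgG-based background of 3.11 stood 32701 bp from a pileup of 204 over 6.85, a ratio of 14.6. On chromosome 3 at 217638690 to 217648093, pileups of 10 and 94 were 8877 bp apart, with folds of 3.30 and 23.1. The next were both on chromosome 4. Sites at 239694046 to 239740264 had pileups of 19 and 157 (folds 6.40 and 47.0, the highest fold of any linked site), and sites at 96987394 to 97007168 had 14 and 113 (folds 5.05 and 20.1).

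The 6 highest pileups among linked sites each belonged to a different run. Such sites were picked for their height, so that their partners are weaker follows from the choice. The highest pileup among linked sites was 234 over a background of 4.41, on chromosome 4 at 36375025 to 36375632. Its neighbour, at a distance of 14247 bp, had 49 over 1.35, the lowest background listed for any chromosomal site. The second, 204, and the fifth, 157, belong to the unequal links above. A pileup of 191 over 8.81 on chromosome 4 at 83299661 to 83300231 had a neighbour of 48 over 3.11. On chromosome 10 at 72425228 to 72446715, pileups of 82 and 169 stood over backgrounds of 8.81 and 3.91, so that the folds of 8.46 and 34.6 differed more than the pileups. On chromosome 1 at 238878064 to 238907565 the pileups were 149 and 30. In these 6 runs the stronger site had from 2.06 to 14.6 times the pileup of the weaker, and in the run with the next highest pileup, 137 beside 101 on chromosome 1, the pileups were more alike.

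Runs with more than 1 strong site were about as rare as the pairing of strong sites elsewhere. Both sites had a fold of at least 20 in 4 of 205 links (1.95%) and in 43 of 2340 neighbours over 50 kb apart (1.84%). Of the 181 runs, 143 had no site with a fold of at least 20, 34 had 1 and 4 had 2. The last 4, of which those on chromosomes 1 and 6 were named after their values were seen, were as follows. The pair on chromosome 1 at 274153358 to 274189799 had pileups of 137 and 101 (folds 35.1 and 30.6), and the pair on chromosome 6 at 8758333 to 8764767 had 84 and 85 (folds 27.4 and 24.5). The pair on chromosome 4 with the pileup of 234 had folds of 21.3 and 43.4, the first of them over the lowest background listed, 1.35. The fourth was a run of 3 on chromosome 3, described below.

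In the 3 runs of 4 sites, 0 of 12 sites had a fold of at least 20 (exact binomial interval 0 to 26.5%), which does not set them apart from the 12.4% of all sites. The run on chromosome 3 at 197275795 to 197397572 had pileups of 62, 63, 21 and 30, with the first 2 sites at folds of 14.4 and 16.6 and the others at 7.54 and 8.63. The run on chromosome 7 at 165793487 to 165878222 had pileups of 57, 17, 41 and 39 over backgrounds of 3.35, 1.35, 2.28 and 5.19. The run on chromosome 4 at 5097911 to 5176177 was the weakest of these by summed pileup, with 22, 41, 20 and 32 over backgrounds of 4.67, 8.30, 2.44 and 4.89 and folds from 4.06 to 6.11. It lay in the first part of its chromosome, 2.08% of the way between the outermost summits listed there.

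Among the 18 runs of 3, the one with the highest summed pileup, 177, was also the most even of those named. It lay on chromosome 3 at 75172176 to 75213550, with pileups of 62, 53 and 62 over backgrounds of 2.07, 1.5 and 2.94, and folds of 20.5, 21.6 and 16.0. A run on chromosome 1 at 44281435 to 44372166 came next with a summed pileup of 168. Its pileups of 46, 59 and 63 stood at folds of 10.1, 13.3 and 19.2. The tightest of the named runs of 3 was on chromosome 7 at 140458962 to 140466913, where pileups of 53, 21 and 23 fell within 7632 bp.

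Other runs of 3 were less even. On chromosome 10 at 79343930 to 79425029 the pileups were 9, 33 and 98, the widest contrast in a run of 3 (10.9-fold). On chromosome 2 at 14730678 to 14746046 they were 16, 66 and 30. On chromosome 9 at 138489066 to 138502168 they were 14, 57 and 20, of which the first 2 are the summits of a split region. On chromosome 4 at 202632948 to 202681263 they were 48, 25 and 69. The last of these had a fold of 29.8 over the lowest background listed, 1.35. On chromosome 3, the run at 62962018 to 62974175 had 76, 42 and 34, and the run at 114804461 to 114844164 had 70, 29 and 34. In the first of these 2 the middle site stood over a background of 8.56, which left it a fold of 4.50.

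Pileups in the remaining named runs of 3 lay between 17 and 54. On chromosome 8 at 172582696 to 172595652 the pileups were 27, 54 and 50, and on chromosome 7 at 162042711 to 162087101 they were 17, 48 and 34. On chromosome 6 at 103717542 to 103788716 they were 35, 25 and 19, with folds between 6.35 and 6.61. The runs on chromosome 1 at 91493684 to 91517291 and on chromosome 7 at 141553067 to 141614061 had 26, 20 and 32, and 18, 30 and 22. Sites in runs of 3 had a median pileup of 29, those in runs of 4 a median of 35.5 (n = 12 sites in 3 runs) and those in pairs a median of 27, with overlapping binomial intervals of 25 to 34, 21 to 57 and 24 to 30.

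**Figure D4:**
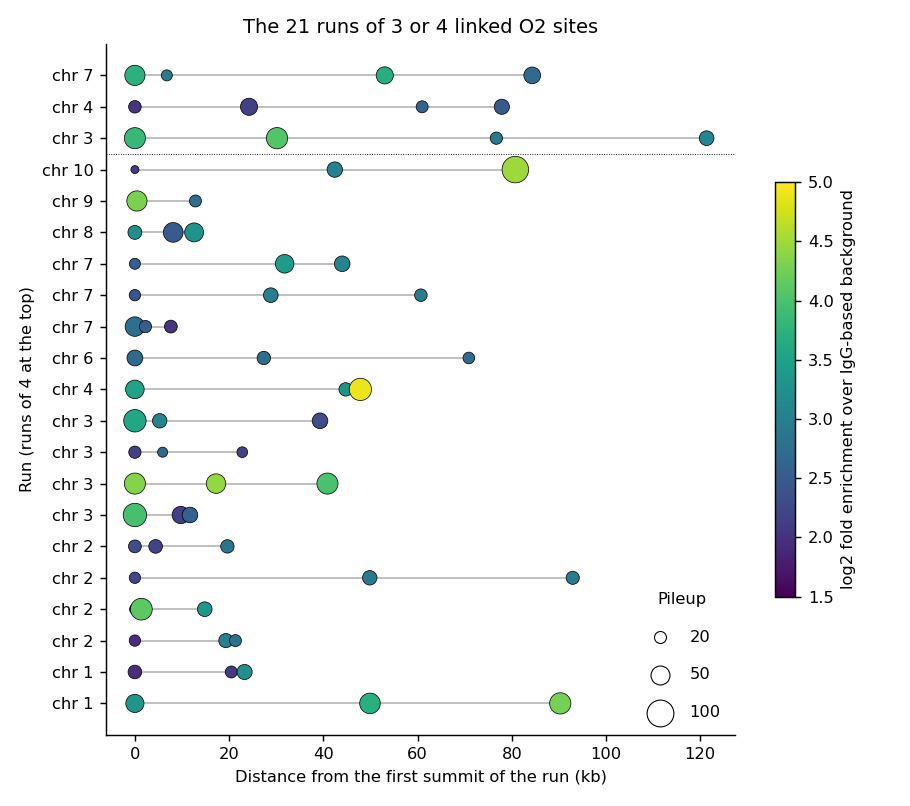
Sites of the 21 runs of 3 or 4 (1 line per run, with its chromosome; runs of 4 above the dotted line) by distance in kb from the first summit of the run; circle area shows pileup and colour the log2 fold over the IgG-based background. Spans between outer summits ran from 7632 to 121354 bp, and 1 run on chromosome 3 has 3 sites of similar pileup (62, 53 and 62).

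Linked sites were found on all 10 chromosomes. They made up 19.8% of the sites of chromosome 2 (64 of 324, exact binomial interval 15.6 to 24.5%), 19.2% on chromosome 9 (33 of 172, 13.6 to 25.9%) and 18.5% on chromosome 3 (56 of 302, 14.3 to 23.4%). The share was 14.7% on chromosome 1, 14.1% on chromosome 4 and 14.8% on chromosome 7, each close to the 15.1% of all sites. It was lowest on chromosome 8, with 11.1% (23 of 207, 7.18 to 16.2%), and on chromosome 5, with 11.8% (34 of 289, 8.29 to 16.1%). The intervals of the highest and the lowest chromosome overlapped.

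The chromosomes with the known alpha-zein arrays carried runs at about their share of all sites. Chromosomes 1, 4 and 7 held 895 of the 2555 sites (35.0%), 60 of the 181 runs (33.1%) and 8 of the 21 runs of 3 or 4 (38.1%). By number of such longer runs, chromosome 3 had 5, chromosomes 2 and 7 had 4 each, chromosomes 1 and 4 had 2 each, and chromosomes 6, 8, 9 and 10 had 1 each. Chromosome 5 had 17 pairs and no longer run.

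**Figure D5:**
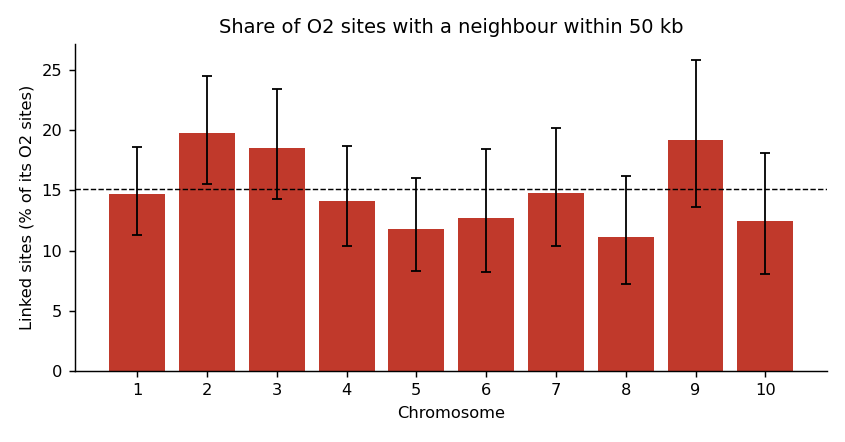
Linked sites as a percentage of the O2 sites of each chromosome (vertical axis), with exact binomial 95% intervals; the dashed line is the value over all 10 chromosomes, 15.1%. Shares ran from 11.1% on chromosome 8 to 19.8% on chromosome 2, with overlapping intervals.

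Runs lay somewhat more often toward the chromosome ends. Of the distance between the outermost summits of a chromosome, the outer 25% at either end held 236 linked sites (61.1%, exact binomial interval 56.1 to 66.0%) and 1223 remaining sites (56.4%, 54.3 to 58.5%), and 110 of 181 runs (60.8%) lay wholly there. The intervals overlapped, and the direction was not the same everywhere: the share was higher for linked sites on 6 chromosomes and lower on 4. On chromosome 2 it was 79.7% for linked and 56.9% for remaining sites, and on chromosome 4 it was 70.7% and 53.8%. On chromosome 3 it was 35.7% for linked and 53.3% for remaining sites, and on chromosome 10 it was 43.5% and 59.9%. All 3 runs of 4 lay wholly in the outer 25%, as did 10 of the 18 runs of 3 and 97 of the 160 pairs. Of the sites in runs of 3, 55.6% lay there, near the 56.4% of remaining sites.

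Beyond their own run, linked sites had about as many O2 sites around them as other sites did. The number of O2 sites outside the run at over 50 kb and up to 1 Mb averaged 2.69 for linked and 2.52 for remaining sites, with the same median of 2 and the same quartiles of 1 and 4. No such site was found for 45 linked sites (11.7%) and for 213 remaining sites (9.82%).

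The earlier list, made from the same pair of libraries on another genome release, gave fewer and equally short runs. By the same rule 194 of its 1681 chromosomal sites (11.5%) were linked, in 86 pairs, 6 runs of 3 and 1 run of 4. Their median pileup was 27, against 28 at the remaining sites of that list, and their medians of length were 405.5 and 412 bp. In that list 11.8% of chromosomal sites had a fold of at least 20, and the number among linked sites was 21 (10.8%). A fold under 5 was listed for 15.4% of them all, with 30 among linked sites (15.5%) and 229 among remaining sites (15.4%), so the larger share of weak sites among linked sites of the later list was not seen there.

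Positions differ between the releases, so links were compared by their spacing. Of the 205 links, 75 (36.6%) had a pair of sites on the same chromosome of the earlier list with a spacing equal within 50 bp and a printed position within 5 Mb. Of these, 2 links on chromosome 5 met the same earlier pair, so that 74 different earlier pairs were found. In the other direction, 77 of the 101 earlier links (76.2%) had such a pair among the later sites. The same search on each of the 9 other chromosomes found at most 1 link. Links with such a pair had a median weaker pileup of 27, and those without had 18. The stronger site was the same in both lists in 65 of the 75. These lists share their libraries, so this is no replicate check.

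Of the 21 runs of 3 or 4, all links of 7 were found again. The run of 4 on chromosome 3 had spacings of 30167, 46555 and 44632 bp, against 30157, 46572 and 44624 bp in the earlier list, where the pileups were 59, 53, 20 and 30. The even run of 3 on chromosome 3 had earlier pileups of 31, 30 and 47, all lower than its later 62, 53 and 62. The others were the named runs of 3 on chromosomes 1 (at 44281435), 2, 3 (at 114804461), 4 and 6. For 6 of the 21 no link was found, but in 3 of these, on chromosomes 2, 3 and 7, the first and last sites were, at 19633, 11675 and 7612 bp, against 19634, 11694 and 7632 bp in the later list. These 3 runs of 3 thus lacked a match for the middle site alone. The run of 4 on chromosome 4 was among the others. Its last link, of 16909 bp and pileups of 20 and 32, missed the limit of 50 bp against an earlier pair at 16835 bp with pileups of 18 and 19. For the run of 4 on chromosome 7, 1 of 3 links was found, the last, with earlier pileups of 41 and 36. The pair of pileups 48 and 191 on chromosome 4 had 50 and 55 in the earlier list at a spacing of 17232 bp, against 17249 bp in the later list.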

How the data were processed

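Wild-type maize endosperm was profiled by ChIP-seq with 1 anti-O2 and 1 IgG library. Bowtie2 and MACS2 (2.0.10 and 2.1.0) are named in the submitters' processing notes, and which MACS2 version made which list is not stated. Neither labels nor headers give the build, the threshold, or how duplicates and reads with several matches were handled. Positions are printed as in the list marked release 26 (the later list), or, where said, release 15 (the earlier list), counted from 1, never converted.

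Per the file headers, the deposited values are the pileup (a signal of overlapping fragments at the summit), the fold enrichment, and -log10 p and -log10 q of the peak caller. The headers of the last 2 were overwritten in the later list, and the columns were identified by their order and by the deposited summit list. The deposited summit lists, filed under IgG, hold the O2 summits (2567 of 2567 later and 1686 of 1686 earlier at identical position and score), so no IgG peaks were analysed.

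The background was computed as (pileup + 1) / fold - 1. Neighbouring summits 1 to 50000 bp apart were linked with Python 3.11.15 and pandas 2.3.3, a step tested on simulated data. Exact intervals came from SciPy 1.17.1. Medians have binomial order-statistic intervals. No test was made: members share libraries and peak calling. Spacing classes, sites of 600 bp or more, sites up to 1 Mb away, outer sites of runs in the earlier list and zein names were added after the data were seen. Members, runs and lists were chosen with earlier results of these data known. Runs were named by a rule on size, pileup, spacing and pileup ratio, with all runs of 3 or more on chromosomes 1, 4 and 7.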

Additional observations from a re-analysis of the deposited data

Results flagged for a closer look

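Outside chromosomes 1 to 10 the later list has 12 sites, of which 5 had a neighbour within 50 kb. On 1 unplaced scaffold a pair of sites 19531 bp apart had pileups of 35 and 29, over IgG-based backgrounds of 1.35 and 4.89 (folds 15.3 and 5.09). They were looked at because they show O2 signal above the control on sequence that the chromosomal runs leave out. The other 3 lay on the plastid, with folds of 3.55, 1.45 and 1.43.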

How the results depend on the processing

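Of 68 alternative values, 43 stayed within 1.5 times of a count or within the 95% interval of a median or share, and 25 moved. With links up to 10 kb there were 117 linked sites in 57 runs, 3 of them of 3 sites. Of these linked sites 6.84% had a fold of at least 20, against 12.7% of the sites then remaining. The outer 25% on each side held 70.1% of the linked and 56.5% of the remaining sites. Links up to 25 kb gave 230 sites, 110 runs and 10 longer runs, and links up to 100 kb gave 666, 302 and 47. At a -log10 q of at least 5 the median pileup was 31 and the median length 393 bp. At a -log10 q of at least 10 there were 166 sites, 78 runs and 8 longer runs. Their median pileup was 41 and their median length 423.5 bp, since weaker sites are left out. A fold of at least 20 was listed for 17.5% of these linked sites and 18.7% of the remaining sites. The earlier list gave 194 sites, 93 runs, 7 longer runs and a median length of 405.5 bp. The outer 10% on each side held 31.9% of linked and 25.4% of remaining sites. Within 10 bp, 38 spacings were found in the earlier list. In each of the 8 alternative choices of distance, threshold or list, the median pileup of linked sites was below that of remaining sites. Examples are 27 against 29.5 with links up to 10 kb and 41 against 42 at a -log10 q of at least 10. These choices draw on overlapping sites of the same libraries, so they are not separate checks, and by chromosome the direction was not the same everywhere. No paired analysis was possible because each antibody has 1 library, which also allows no leave-one-out check. Depth is unknown, so how weak a neighbour could have been found is not known. Among all chromosomal sites of the later list the lowest pileup was 8 and the lowest -log10 q was 1.35.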
